A study of Homo sapiens with 8 samples.

Results

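Expression of 45 genes of DNA replication and mitosis was examined after transfection of small RNAs into 5 human cancer cell lines. The genes were taken as a list of symbols, 20 that act in DNA replication and 25 that act in mitosis, and each was matched to the gene name column of the array. All 45 were found, among 43317 gene names, with 56 probes in all. The rule used no measured value, although the list was drawn up with earlier results of these data known.

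Each of 8 two-colour Agilent arrays compared cells transfected with 1 small RNA, labelled with Cy5, with mock cells of the same line, which the labels describe as not transfected, labelled with Cy3. PC3 prostate cancer cells received 1 of 2 siRNAs against PIR (pirin), which the labels call si-PIR-2 and si-PIR-3. SK-MES-1 lung squamous carcinoma cells received miR-144-5p or miR-144-3p, the 2 strands of 1 microRNA hairpin. The same strand, miR-204-5p, went into SW1990, a pancreatic line, and into MDA-MB-231, a line from a breast tumour. The last line, pancreatic PANC1, received either the 5p or the 3p strand of miR-130. The RNAs were carried in with Lipofectamine RNAiMAX. No array held cells transfected with a control RNA, so the response to a given RNA, to transfection as such and to the dyes, which were never swapped, cannot be told apart. Each transfection was measured on 1 array without a replicate of its own. The labels do not say that the samples came from separate cultures. The p-values below therefore measure only the spread between these samples, part of which may be technical. That spread holds the difference between the 2 siRNAs and that between the 2 lines given miR-204-5p, or that between the 5 lines.

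Cells copy their DNA once in each division and then separate the copies. Before S phase, CDC6 and CDT1 load the helicase made of MCM2 to MCM7 at origins, and CDC45 and the GINS proteins turn it on. The genes for these proteins are switched on by E2F factors when cells leave rest. The genes of mitosis come on later, in G2, and most are held down in resting cells by a complex that binds a promoter element called CHR. Transcripts of both sets are abundant in dividing cells and low in resting cells, so they are often read together as a measure of proliferation. In a culture, fewer cells in S phase or mitosis and less RNA per cell cannot be told apart from such values.

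The mature strands of the transfected microRNAs that the labels name fully are shown because they are the RNAs that were put into the cells. Whether they were given as single strands or as duplexes is not given in the sources used here. The capitals mark the seed, bases 2 to 8, which pairs with target transcripts. The sequences and positions are those of RefSeq on GRCh38.p14, at chr17:28861583-28861604, chr17:28861548-28861567 and chr9:70810031-70810052 on the minus strand. The seeds of the 3 strands differ from each other.
hsa-miR-144-5p: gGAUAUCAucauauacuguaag
hsa-miR-144-3p: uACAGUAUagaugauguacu
hsa-miR-204-5p: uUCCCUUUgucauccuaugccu

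Promoter windows of 4 replication genes and 4 mitosis genes are shown because the 2 groups of members differed in these short elements. Each window is a run of 26 bases read 5′ to 3′ in the direction of its gene, from RefSeq promoters on GRCh38.p14. Capitals mark an E2F core in the replication genes MCM6, PCNA, E2F1 and E2F2, and a CHR core in the mitosis genes CENPA, KIF11, PLK1 and MKI67. The marked element lies on the strand opposite to the gene in PCNA and KIF11. The MCM6 window also holds an E2F core on the opposite strand, which overlaps the marked one and is not marked itself. Their positions were MCM6 chr2:135876517-135876542 (minus strand), PCNA chr20:5126665-5126690 (minus strand), E2F1 chr20:33686389-33686414 (minus strand), E2F2 chr1:23531259-23531284 (minus strand), CENPA chr2:26786028-26786053 (plus strand), KIF11 chr10:92593092-92593117 (plus strand), PLK1 chr16:23678850-23678875 (plus strand) and MKI67 chr10:128126437-128126462 (minus strand).
MCM6: ttggtcaggTTTGGCGCgaaatctcc
PCNA: gcgtcagggGCGGGAAAaggcgtgcg
E2F1: caaaaaggaTTTGGCGCgtaaaagtg
E2F2: ggcacgacgTTTGGCGCtaaaaaaaa
CENPA: gagcgagcgaTTTGAAcgcgagcggc
KIF11: ctgtctctttTTCAAAttgaggcgcc
PLK1: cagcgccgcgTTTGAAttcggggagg
MKI67: ttcgttttcgTTTGAAttgggcgggc

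The searched E2F core was TTTCCCGC, TTTCGCGC, TTTGCCGC or TTTGGCGC, and the CHR core was TTTGAA, each on either strand within 250 bases before and 50 bases after the start of the gene. A promoter was at hand for 18 of the 20 replication members and 20 of the 25 mitosis members. The E2F core was present in 14 of 18 replication promoters (77.8%) and 3 of 20 mitosis promoters (15%), beside 3.33% of all 27305 promoters. The CHR core was present in 1 of 18 replication promoters (5.56%) and 13 of 20 mitosis promoters (65%), beside 15.4% of all promoters. The CCAAT box, searched as CCAAT on either strand, was present in 77.8% of the replication and 85% of the mitosis promoters, beside 35.7% of all. Lists of other replication and other mitosis genes, described below with the exit genes, held the E2F core in 28.9% and 8.51% of promoters. They held the CHR core in 2.63% and 68.1% and the CCAAT box in 42.1% and 63.8%, so the shares depend on the genes listed. A match of letters is a description of the promoter and not a measured binding site.

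**Figure D1:**
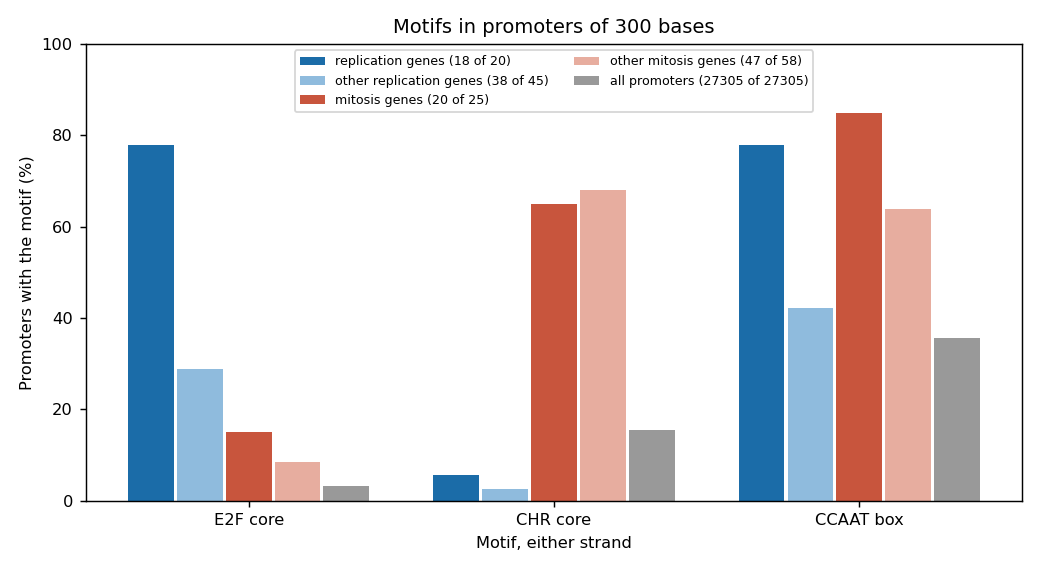
Share of promoters (percent, vertical axis from 0) that hold an E2F core, a CHR core or a CCAAT box, for the replication and mitosis members, the other replication and mitosis genes described with the exit genes, and all 27305 RefSeq promoters. The E2F core was found in 77.8% of replication and 15% of mitosis members, the CHR core in 5.56% and 65%. In the other replication and other mitosis genes the E2F core was found in 28.9% and 8.51%, the CHR core in 2.63% and 68.1%.

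All 45 members were well above background in both channels on all 8 arrays, whereas 34.2% of all probes were so in Cy3 and 41.1% in Cy5. No spot was saturated, and 41.4% to 46.4% of probes per array were well above background in Cy3 and 49.8% to 54.6% in Cy5. PIR itself had log2 ratios of -5.46 with si-PIR-2 and -4.27 with si-PIR-3, against -0.24 to 0.05 on 5 of the other 6 arrays and -1.59 with miR-130-5p. The epithelial genes EPCAM, KRT8, KRT18 and KRT19 and the mesenchymal gene VIM were well above background in every line. Of the markers of the tissues of origin, KLK3 and KLK2 were not well above background in PC3, KRT5 was not in SK-MES-1 although TP63 and KRT14 were, and PGR was not in MDA-MB-231 although GATA3 was. The pancreatic acinar gene CPA1 was not above background in SW1990 or PANC1. The Cy3 channels of the 2 arrays of PC3, SK-MES-1 and PANC1 differed by an SD of 0.155 to 0.163 on the log2 scale, against 0.952 to 1.14 between lines, so the 2 ratios of 1 line share nearly the same mock level. The array of miR-130-5p stood apart by the width of its ratios, with 17.6% of 18733 genes below -0.5 and 20.3% above 0.5.

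All ratios below are log2 of transfected over mock signal as the scanner software normalized them, so that -1 is a level 2 times lower in transfected cells. That normalization removes a trend of the ratio with brightness, and a difference shared by bright genes would be removed with it. With normexp background correction and only the median of all probes of each array removed instead, called median centring alone below, the median of the genes tested lay between 0.169 and 0.475 and that of the members moved up on all 8 arrays. The value of a gene in each line is given in the order si-PIR-2 and si-PIR-3 for PC3, the 5p before the 3p strand of miR-144 for SK-MES-1, and likewise of miR-130 for PANC1.

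By array, the median ratio of the 45 members was -0.60 with miR-130-5p in PANC1, -0.40 with miR-204-5p in SW1990 and -0.40 with miR-204-5p in MDA-MB-231. With miR-130-5p the median stayed below 0 with median centring alone, at -0.11, but with miR-204-5p it moved to 0.35 and 0.22. Measured from the median of all genes under that centring, the members lay at -0.08 and -0.09 with miR-204-5p and at -0.28 with miR-130-5p, below all genes under both scalings. The median was -0.18 with si-PIR-2 and -0.12 with miR-130-3p, and these 2 values moved to 0.77 and 0.67, above all genes, with median centring. It was 0.11 with si-PIR-3, 0.0034 with miR-144-5p and 0.065 with miR-144-3p, and 0.75, 0.52 and 0.58 with median centring. Over 2 arrays each, the median was -0.034 ± 0.21 (SD, n = 2) with si-PIR and -0.40 ± 0.0024 (SD, n = 2) with miR-204-5p.

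The members with a ratio below -0.5 numbered 26 of 45 with miR-130-5p, beside 17.6% of all genes, and 0 were above 0.5, beside 20.3%. They numbered 15 with miR-204-5p in SW1990 (6.94% of all genes) and 15 in MDA-MB-231 (7.19%), and 0 were above 0.5 on either array (10.2% and 8.78% of all genes). On the array of si-PIR-2, 4 were below -0.5 (11% of all genes) and 2 above 0.5 (11.1%). On that of si-PIR-3, 4 were below (8.69%) and 2 above (9.64%). With miR-144-5p 3 were below (7.72%) and 5 above (9.13%), with miR-144-3p 0 were below (5.45%) and 0 above (6.84%), and with miR-130-3p 3 were below (9.53%) and 3 above (11.6%). The shares of members stood over the background share of all genes for the lower side of the 2 arrays of miR-204-5p and the array of miR-130-5p, and near or under it for the others. The counts are of single arrays, and no test was applied to them.

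**Figure D2:**
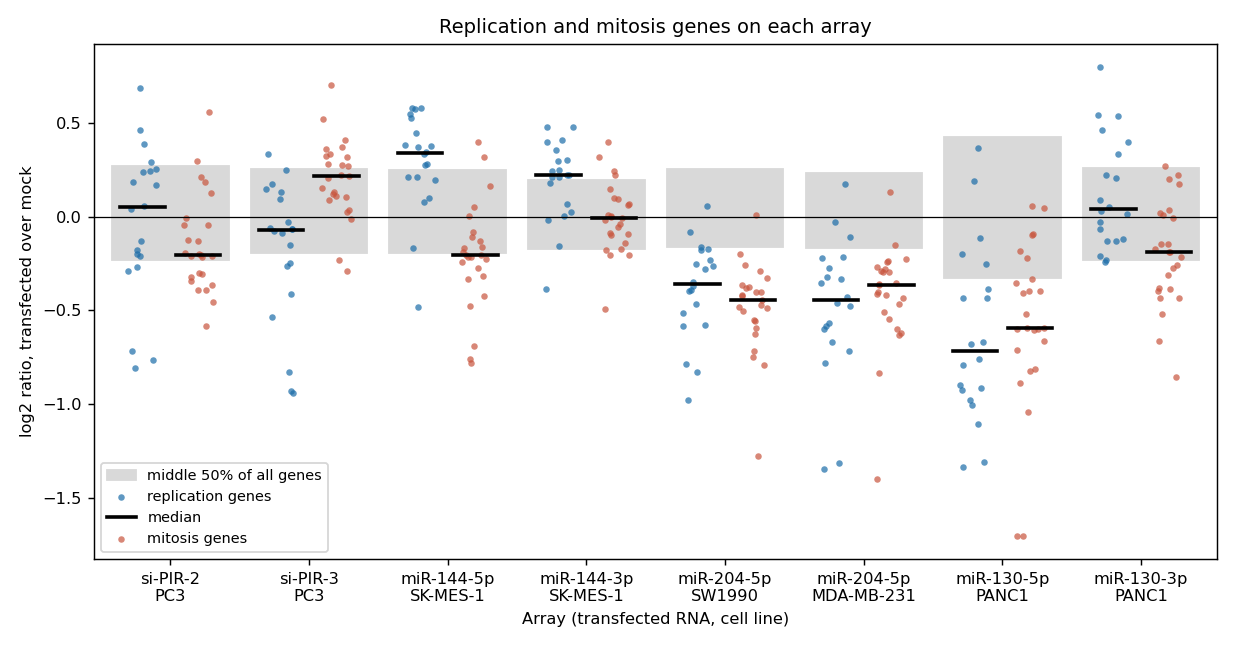
Log2 ratio of transfected over mock signal (vertical axis) of each replication and mitosis member (points) on each of the 8 arrays, with the median of each list (black bars) and the range of the middle 50% of all genes (grey boxes). The members' medians ran from -0.60 with miR-130-5p to 0.11 with si-PIR-3, and with median centring alone from -0.11 to 0.77.

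The helicase subunits did not share 1 pattern. MCM2, a subunit of the MCM2 to MCM7 ring, had log2 ratios of 0.24 and 0.13 in PC3, 0.35 and 0.065 in SK-MES-1, -0.28 in SW1990, -0.22 in MDA-MB-231, and -0.79 and 0.015 in PANC1. MCM7, of the same ring, had ratios of -0.21 and -0.26 in PC3, -0.48 and -0.39 in SK-MES-1, -0.39 in SW1990, -0.32 in MDA-MB-231, and -0.20 and -0.25 in PANC1. By its brightest probe MCM7 was thus below 0 on all 8 arrays, and above 0 on all 8 with median centring alone. MCM2 was below 0 only on the 2 arrays of miR-204-5p and on that of miR-130-5p. A second probe of MCM7 read 0.12 with miR-144-5p where the first read -0.48, and 0.10 with miR-130-5p where the first read -0.20. On the other arrays the second probe lay between -0.36 and -0.064. The tests of MCM7 below rest on the brightest probe. MCM6 was the other subunit below 0 on all 8 arrays (1 with median centring alone), from -1.01 with miR-130-5p to -0.068 with miR-130-3p. MCM4 had ratios of -0.72 and -0.83 in PC3, 0.21 and 0.024 in SK-MES-1, -0.98 in SW1990, -0.78 in MDA-MB-231, and -0.98 and -0.13 in PANC1, -0.72 or lower on 5 arrays. MCM3 and MCM5 ranged from -0.68 to 0.55 and from -0.25 to 0.38.

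Among the genes that load and activate the helicase, GINS1, a part of the active helicase, was above 0 on all 8 arrays, and also with median centring alone. Under that centring only 1397 to 4572 of 18733 genes per array were below 0. The log2 ratios of GINS1 were 0.24 and 0.33 in PC3, 0.27 and 0.30 in SK-MES-1, 0.058 in SW1990, 0.18 in MDA-MB-231, and 0.19 and 0.80 in PANC1. CDT1, which brings MCM2 to MCM7 to origins, was below 0 on only the 2 arrays of miR-204-5p, at -0.085 and -0.027, and was the highest member with si-PIR-2 at 0.69 and with miR-130-5p at 0.37. CDC6, its partner in loading, was at -0.77 with si-PIR-2 and -0.15 with si-PIR-3, and ranged from -0.46 to 0.46 on the other arrays. It was a dim member, with Cy3 signals of 33.3 to 42.4 on 6 arrays, and its ratio with si-PIR-2 moved to -0.18 with normexp and loess and to -0.029 with median centring alone. The lowest ratio of CDC45, which joins MCM2 to MCM7 as the helicase fires, was -1.34 with miR-130-5p. GINS2 was at -0.92 on that array, far from the 0.19 of its partner GINS1, and MCM10, which helps the helicase to start, was at -0.43 there and at 0.54 with miR-130-3p. CDC6, CDC45, GINS2 and MCM10 all lay above 0 with both strands of miR-144 and with miR-130-3p.

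PCNA, the clamp that holds DNA polymerases on DNA, had log2 ratios of -0.20 and -0.065 in PC3, 0.38 and 0.22 in SK-MES-1, -0.37 in SW1990, -0.43 in MDA-MB-231, and -0.76 and -0.03 in PANC1. RRM2, the regulated subunit of the enzyme that makes deoxynucleotides, had ratios of -0.13 and -0.076 in PC3, 0.58 and 0.48 in SK-MES-1, -0.47 in SW1990, -1.35 in MDA-MB-231, and -1.31 and 0.22 in PANC1. PCNA and RRM2 were both above 0 with either strand of miR-144 and both below 0 with miR-204-5p and miR-130-5p, but RRM2 differed more between the 2 lines given miR-204-5p. RRM1, the other subunit, and TYMS, which makes thymidylate, had their lowest ratios of -0.90 and -0.67 with miR-130-5p and with miR-204-5p in MDA-MB-231, respectively. POLA1, of the polymerase that starts new strands, was at 0.29 with si-PIR-2 and -0.94 with si-PIR-3, on opposite sides of 0.

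E2F1, an activator of S phase genes, had log2 ratios of 0.46 and 0.25 in PC3, 0.53 and 0.21 in SK-MES-1, -0.83 in SW1990, -0.60 in MDA-MB-231, and -0.43 and -0.12 in PANC1. E2F2, a close relative, was at -0.79 and -1.32 with miR-204-5p and between -0.23 and 0.22 on the other 6 arrays. Both E2F genes therefore had their lowest ratios in the lines given miR-204-5p. UHRF1, which keeps DNA methylation at the fork, had ratios of -0.81 and -0.93 in PC3, 0.58 and 0.40 in SK-MES-1, -0.40 in SW1990, -0.57 in MDA-MB-231, and -0.92 and -0.13 in PANC1. It was the lowest or second lowest member with both siRNAs and the second highest with miR-144-5p.

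Of the genes of mitotic entry, CDK1, the kinase that drives mitosis, had log2 ratios of -0.46 and 0.10 in PC3, -0.32 and -0.18 in SK-MES-1, -0.59 in SW1990, -0.47 in MDA-MB-231, and -0.66 and 0.22 in PANC1. CCNB1, its main cyclin, had ratios of -0.35 and 0.20 in PC3, -0.25 and -0.02 in SK-MES-1, -0.38 in SW1990, -0.28 in MDA-MB-231, and -0.36 and -0.86 in PANC1, and PLK1, a kinase that acts from entry to exit, had 0.18 and 0.36 in PC3, -0.17 and -0.10 in SK-MES-1, -0.29 in SW1990, -0.15 in MDA-MB-231, and 0.048 and -0.38 in PANC1. CDK1 was at -0.46 with si-PIR-2 by its brightest probe and at 0.05 by the other. The 2 probes of CCNB1 read 0.20 and -0.51 with si-PIR-3. Probes of CDK1 also differed in sign in MDA-MB-231 (-0.47 and 0.03) and with miR-130-3p (0.22 and -0.11). Those of CCNB1 did so with miR-144-3p (-0.02 and 0.09). Those of PLK1 did so with miR-130-5p (0.048 and -0.40) and miR-144-3p (-0.10 and 0.0036). All these signs depend on the probe. CCNA2, the cyclin of S phase and early mitosis, was at -0.58 with si-PIR-2 and 0.33 with si-PIR-3. CDC25C, the phosphatase that activates CDK1, was the only mitosis member below 0 on all 8 arrays (2 with median centring alone), from -0.81 to -0.015. CCNB2 and AURKA, which acts at spindle poles, ranged from -0.60 to 0.22 and from -0.52 to 0.11.

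The lowest ratios of all belonged to genes of the centromere and of chromosome structure. CENPA, the histone H3 variant of centromeres, had log2 ratios of 0.30 and 0.28 in PC3, 0.0034 and 0.15 in SK-MES-1, -1.28 in SW1990, -1.40 in MDA-MB-231, and -0.40 and 0.01 in PANC1. The 2 arrays of miR-204-5p lay apart from the other 6, of which the lowest was that of miR-130-5p. CENPE, a kinetochore motor, had ratios of -0.20 and 0.024 in PC3, -0.76 and -0.20 in SK-MES-1, -0.56 in SW1990, -0.62 in MDA-MB-231, and -1.70 and -0.66 in PANC1, and TOP2A, which untangles DNA, had -0.21 and 0.12 in PC3, -0.42 and -0.10 in SK-MES-1, -0.75 in SW1990, -0.63 in MDA-MB-231, and -1.70 and -0.19 in PANC1. Both were lowest with miR-130-5p. KIF11, the motor that pushes spindle poles apart, had ratios of -0.39 and -0.29 in PC3, -0.78 and -0.49 in SK-MES-1, -0.40 in SW1990, -0.30 in MDA-MB-231, and -0.82 and 0.016 in PANC1, and was the lowest member on both arrays of miR-144. AURKB, the kinase of the chromosome passenger complex, had ratios of 0.56 and 0.32 in PC3, 0.40 and 0.32 in SK-MES-1, -0.49 in SW1990, -0.84 in MDA-MB-231, and -0.33 and 0.27 in PANC1, above 0 on the arrays of si-PIR, miR-144 and miR-130-3p and below 0 on the other 3.

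MKI67, the gene of the proliferation marker Ki-67, had log2 ratios of -0.047 and 0.70 in PC3, 0.32 and 0.40 in SK-MES-1, -0.42 in SW1990, -0.24 in MDA-MB-231, and -0.22 and -0.17 in PANC1. By its brightest probe it was the highest member with si-PIR-3. Its other probes read 0.37 and 0.30 there, below the 0.52 of CENPF, and -0.53 and -0.35 with si-PIR-2. Unlike TOP2A, MKI67 stood above 0 with both strands of miR-144. Its 3 probes read -0.22, -0.06 and -1.60 with miR-130-5p, a spread chosen for mention after the values were seen. KIF20A, a motor of cytokinesis, was below 0 on 7 arrays, down to -1.04 with miR-130-5p. KIF23, another such motor, stayed between -0.52 and 0.37 and was, with GINS1, 1 of the 2 members above 0 on both arrays of miR-204-5p. The checkpoint genes BUB1, BUB1B, MAD2L1 and TTK ranged from -0.71 to 0.22. BIRC5, the survivin gene of the passenger complex, ranged from -0.60 to 0.32, and the kinetochore gene CENPF from -0.59 to 0.52. CDC20 and UBE2C, which start anaphase with the ubiquitin ligase APC/C, ranged from -0.33 to 0.28 and from -0.55 to 0.22. TPX2 and NUSAP1, which bind spindle microtubules, ranged from -0.60 to 0.09 and from -0.51 to 0.41.

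**Figure D3:**
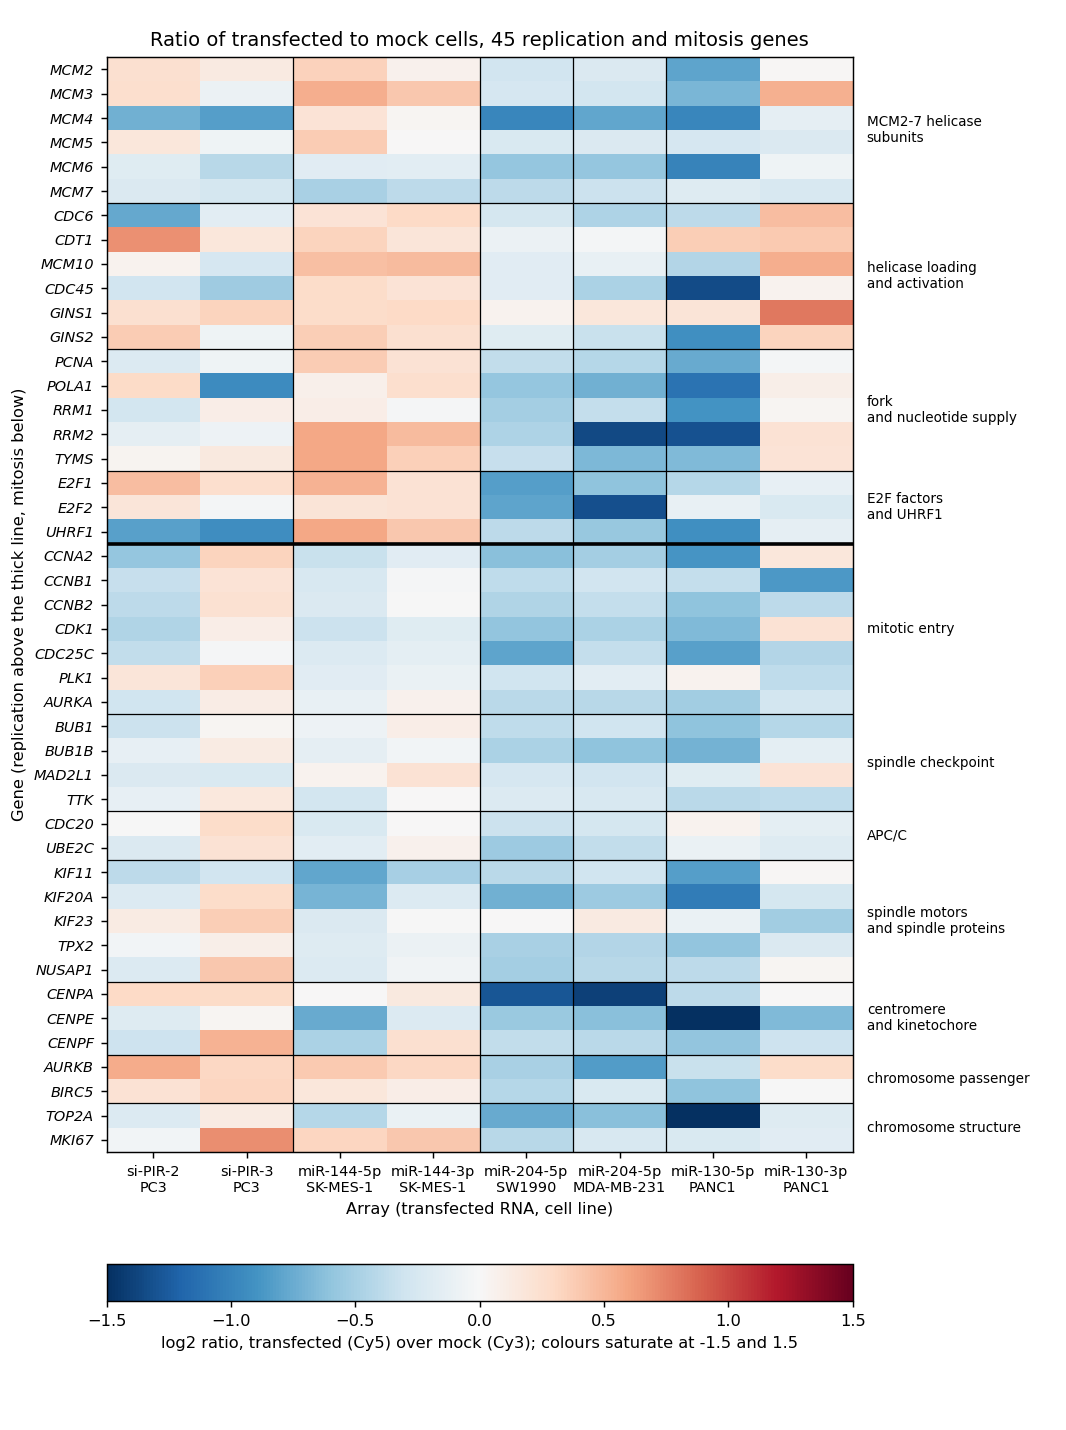
Log2 ratio of transfected over mock signal (colour scale) of each of the 45 members (rows, ordered by role, replication above mitosis) on each of the 8 arrays (columns), with colours saturating at -1.5 and 1.5. The arrays of miR-204-5p and miR-130-5p have 41 to 43 members below 0, and with median centring alone the members' medians there were 0.35, 0.22 and -0.11.

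To ask whether miR-204-5p moved these genes in both lines that received it, the 2 arrays were fitted with limma together with the 2 of si-PIR. The mean ratio was below 0 for 43 of the 45 members, beside 8562 of 19729 genes, with a median of -0.40 that moved to 0.29 with median centring alone. In the limma test 0 members were lower or higher at an adjusted p under 0.05, as were 0% of all genes in either direction. At an unadjusted p under 0.05, 22 members were lower, beside 6.74% of all genes, and 0 were higher, beside 8.49%. They were 10 replication and 12 mitosis members. CENPA had the lowest adjusted p, with a mean of -1.34 (SE 0.123, n = 2; adjusted p = 0.128). MCM4 followed with -0.88 (SE 0.131; adjusted p = 0.158), E2F2 with -1.05 (SE 0.178; adjusted p = 0.17), E2F1 with -0.71 (SE 0.14; adjusted p = 0.189) and TOP2A with -0.69 (SE 0.145; adjusted p = 0.2). RRM2 had a mean of -0.91 ± 0.62 (SD, n = 2), the widest gap between the 2 lines among these genes. Without the array of SW1990 or without that of MDA-MB-231, 6 members were lower at an unadjusted p under 0.05, where the spread came from the 2 arrays of si-PIR alone and the lone array was assumed to vary like them. With median centring alone CENPA was lower and 14 members were higher at an adjusted p under 0.05, beside 67 lower and 8504 higher of all genes.

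By the brightest probes all 43 members below 0 were below 0 on each of the 2 arrays of miR-204-5p, beside 5534 of 18733 genes. Above 0 on each were 2 members, beside 7394 genes, and 0 had opposite signs. The other probe of CDK1 read 0.03 in MDA-MB-231. The median size of the difference between the lines was 0.12, beside 0.18 over all genes, of which 5805 of 18733 had opposite signs. Of the members, 10 were below -0.5 in both lines, 5 of replication and 5 of mitosis, beside 576 of 18733 genes. The 2 arrays do not share a mock sample. With median centring alone 4 members were below 0 in both lines. Of all 18733 genes, 1397 were then below 0 in SW1990 and 1953 in MDA-MB-231, each line taken by itself. The 4 members are thus not a clear excess over all genes. They were MCM4, at -0.24 and -0.21 in SW1990 and MDA-MB-231, E2F1, at -0.073 and -0.024, E2F2, at -0.022 and -0.58, and CENPA, at -0.44 and -0.65.

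With si-PIR in PC3, the median of the members' mean ratios was 0.00042, which moved to 0.77 with median centring alone. In the limma test 0 members passed an adjusted p under 0.05, as did 0% of all genes in either direction. The lowest adjusted p of all genes was 0.163, so PIR, at -5.46 and -4.27, did not pass either. At an unadjusted p under 0.05, 4 members were lower, beside 6.82% of all genes, and 1 was higher, beside 8.65%. UHRF1 had a mean of -0.87 (SE 0.13, n = 2; adjusted p = 0.214), MCM4 of -0.77 (SE 0.131; adjusted p = 0.232), CDC45 of -0.41 (SE 0.151; adjusted p = 0.31) and KIF11 of -0.34 (SE 0.125; adjusted p = 0.309). AURKB was on the higher side with 0.44 (SE 0.155; adjusted p = 0.304). With median centring alone the mean of UHRF1 was -0.020, those of MCM4, CDC45 and KIF11 were above 0, and 37 members were higher at an adjusted p under 0.05, beside 31 lower and 10059 higher of all genes. The probe of UHRF1 lies at chr19:4962065-4962124 and that of CENPA at chr2:27016914-27016973 in the array's own hg19 positions.

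The 2 siRNAs differed from each other for the mitosis genes. Of the 25 mitosis members, 22 had a lower ratio with si-PIR-2 than with si-PIR-3, with a median difference of -0.33. Of the 20 replication members 6 were lower with si-PIR-2, with a median difference of 0.17. Over all genes, 9592 of 18733 were lower with si-PIR-2 and the median difference was -0.012. Opposite signs were seen for 17 of 25 mitosis and 7 of 20 replication members, beside 7430 of 18733 genes. Between these 2 arrays the log2 signal of the 19884 probes well above background in Cy3 on all 8 arrays differed by an SD of 0.162 in the mock channel and of 0.513 in the transfected channel, and with 1 array for each siRNA the difference has no replicate check. PIR was lower with si-PIR-2 than with si-PIR-3, and the part of that in the difference was not tested.

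**Figure D4:**
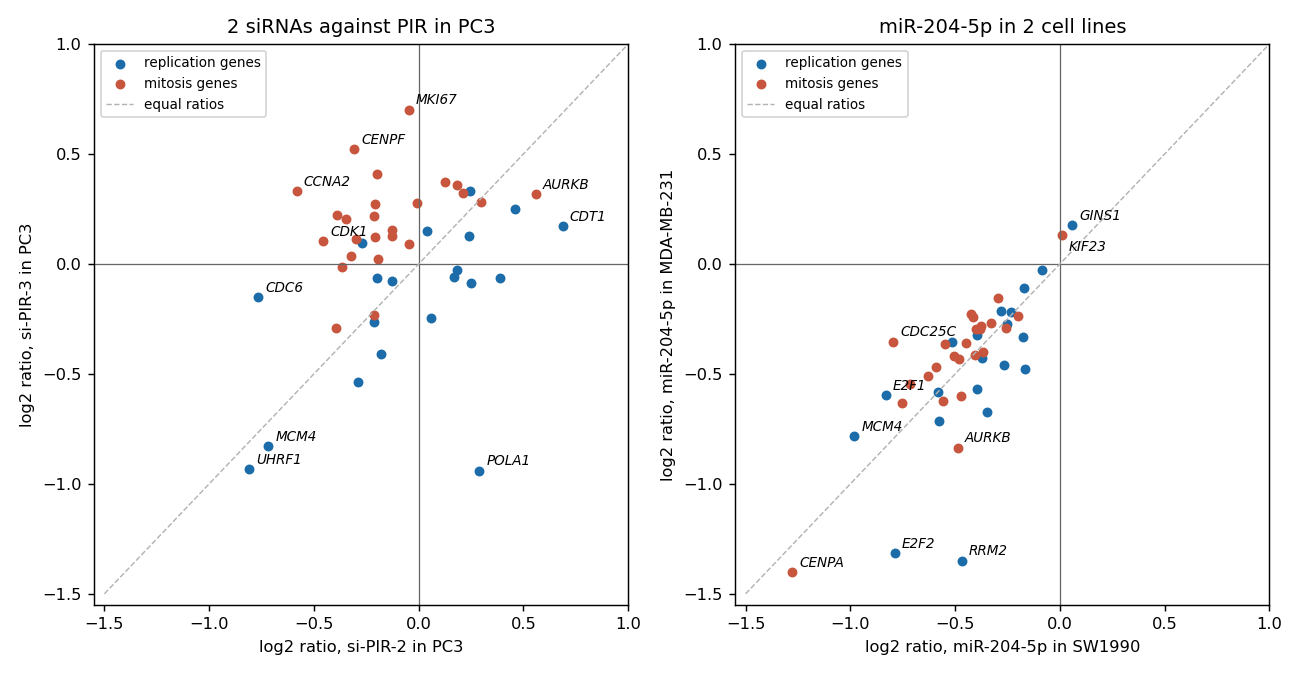
Log2 ratios of the 45 members, 1 point a gene coloured by list, with si-PIR-2 against si-PIR-3 in PC3 in the left panel and miR-204-5p in SW1990 against MDA-MB-231 in the right panel, and a dashed line of equal ratios. With miR-204-5p 43 members lie below 0 on both axes and with si-PIR 24 lie on opposite sides of 0, whereas under median centring alone the medians with miR-204-5p were 0.35 and 0.22.

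The difference between the effects of si-PIR and miR-204-5p was tested as well. In the limma test 0 members passed an adjusted p under 0.05, as did 0% of all genes in either direction. At an unadjusted p under 0.05, 12 members were higher with si-PIR, beside 5.65% of all genes, and 0 were lower, beside 5.74%. The largest difference was that of CENPA, 1.63 (SE 0.174; adjusted p = 0.313), followed by that of E2F2, 1.13 (SE 0.252; adjusted p = 0.331). The next was that of AURKB, with means of 0.44 with si-PIR and -0.66 with miR-204-5p, and E2F1 had a difference of 1.07 (SE 0.199; adjusted p = 0.313). The RNA and the cell line change together in this comparison and cannot be told apart.

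In SK-MES-1, replication members and mitosis members lay apart, most clearly with miR-144-5p. The median with miR-144-5p was 0.34 for replication and -0.21 for mitosis members, and 0.89 and 0.43 with median centring alone. With miR-144-3p it was 0.22 and -0.0071, and 0.71 and 0.54 with median centring alone. Of the replication members 17 of 20 were above 0 with both strands, and of the mitosis members 14 of 25 were below 0 with both, beside 7317 and 6399 of 18733 genes. The 2 arrays shared nearly the same mock level. The median of mitosis minus that of replication was -0.55 and -0.23 here, -0.26 with si-PIR-2, 0.29 with si-PIR-3, -0.09 and 0.08 with miR-204-5p in SW1990 and MDA-MB-231, 0.13 with miR-130-5p and -0.23 with miR-130-3p. With median centring alone these 8 differences kept their signs, at -0.46 and -0.18 in SK-MES-1.

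In PANC1, 38 of the 45 members had a lower ratio with miR-130-5p than with miR-130-3p, with a median difference of -0.59, beside 8507 of 18733 genes and 0.071. The gap was wider for replication members, -0.85, than for mitosis members, -0.38. Opposite signs were seen for 10 of 20 replication and 9 of 25 mitosis members, near the 8091 of 18733 genes. With miR-130-5p 7 members were below -1, of which 4 were of replication and 3 of mitosis, beside 1039 of 18733 genes. CCNB1 went the other way, at -0.36 with miR-130-5p and -0.86 with miR-130-3p, where it was the lowest member. PIR was also at -1.59 with miR-130-5p, and its part in these values was not tested.

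Over the 5 lines, each given as the mean of its arrays, 42 of 45 members had a mean ratio below 0, all 25 of mitosis among them, and the median of the means was -0.27, which moved to 0.42 with median centring alone. In the limma test 0 members passed an adjusted p under 0.05, beside 0.155% of all genes on the lower side and 0.198% on the higher side. At an unadjusted p under 0.05, 18 members were lower, 5 of replication and 13 of mitosis, beside 7.87% of all genes, and 1 was higher, beside 12.5%. KIF11 had the lowest adjusted p, with a mean of -0.42 (SE 0.0844, n = 5; adjusted p = 0.0793), then MCM6 with -0.43 (SE 0.0961; adjusted p = 0.0899) and MCM7 with -0.32 (SE 0.0787; adjusted p = 0.102). The widest means were MCM4 with -0.60 (SE 0.158; adjusted p = 0.117), CENPE with -0.59 (SE 0.148; adjusted p = 0.11) and TOP2A with -0.53 (SE 0.141; adjusted p = 0.119). GINS1 was the 1 on the higher side with 0.26 (SE 0.0896; adjusted p = 0.18). Means of the other named members were -0.21 ± 0.31 (SD, n = 5) for PCNA, -0.10 ± 0.28 (SD, n = 5) for MCM2, -0.20 ± 0.55 (SD, n = 5) for E2F1, -0.39 ± 0.68 (SD, n = 5) for RRM2, -0.34 ± 0.18 (SD, n = 5) for CDK1, -0.29 ± 0.21 (SD, n = 5) for CCNB1, -0.034 ± 0.35 (SD, n = 5) for MKI67 and -0.095 ± 0.21 (SD, n = 5) for PLK1. Left out 1 at a time, the lines SW1990, MDA-MB-231 and PANC1 each lowered the 18 to between 10 and 12, and without PC3 or SK-MES-1 it was 22. With median centring alone 32 members were higher and 0 lower at an adjusted p under 0.05, beside 20 lower and 13378 higher of 18733 genes, and KIF11 and MCM7 passed an adjusted p under 0.05 on the lower side with normexp and loess. SW1990 and MDA-MB-231 both received miR-204-5p, which therefore enters once for each of these lines, and every other line received other RNAs. These means are thus over transfections of several kinds.

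Further genes of the same processes were taken from lists of 45 other replication genes, 58 other mitosis genes and 20 genes of cell cycle exit, of which 19 were measured. With miR-204-5p the median of the mean ratios was -0.25 for the other replication and -0.32 for the other mitosis genes, beside -0.40 for the members and 0.045 for all genes, and with median centring alone it was 0.39, 0.32 and 0.29 for these 3 lists. Lower at an unadjusted p under 0.05 were 9 of 45 other replication and 20 of 58 other mitosis genes, beside 6.74% of all genes. Higher were 0 and 1, beside 8.49%, but 0 passed an adjusted p under 0.05. Over the 5 lines 8 of 45 and 14 of 58 were lower at an unadjusted p under 0.05, beside 7.87% of all genes. In the other direction 1 and 3 were higher, beside 12.5%. CKAP2L, a spindle gene, had log2 ratios of -0.14 and -0.10 in PC3, -0.60 and -0.15 in SK-MES-1, -1.23 in SW1990, -1.11 in MDA-MB-231, and 0.18 and -0.37 in PANC1, and RACGAP1, of cytokinesis, had -0.45 and 0.21 in PC3, -0.062 and 0.056 in SK-MES-1, -1.02 in SW1990, -1.02 in MDA-MB-231, and -0.27 and -0.47 in PANC1. Both had their lowest ratios with miR-204-5p, all 4 below -1. CHAF1B, which places histones on new DNA, was at -1.85 and DUT, which keeps uracil out of DNA, at -1.21 with miR-130-5p, their lowest values.

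Of the exit genes, 3 were lower and 4 higher over the 5 lines at an unadjusted p under 0.05, of 19 measured and beside 7.87% and 12.5% of all genes, and 0 passed an adjusted p under 0.05. CDKN1B, the gene of the cell cycle inhibitor p27, had log2 ratios of 0.46 and 0.93 in PC3, 0.24 and 0.14 in SK-MES-1, 0.66 in SW1990, 0.84 in MDA-MB-231, and 0.24 and 0.49 in PANC1. It was above 0 on all 8 arrays under each of the 3 scalings. With median centring alone, however, only 1397 to 4572 of 18733 genes per array were below 0. The mean of CDKN1B over the 5 lines was 0.55 (SE 0.113, adjusted p = 0.0797 in the limma test). CDKN2C, the gene of the inhibitor p18, was below 0 on all 8 arrays, and on 3 with median centring alone, down to -1.65 and -1.25 with miR-204-5p in SW1990 and MDA-MB-231, with a mean of -0.75 (adjusted p = 0.148). Under the normalization of the scanner software the 2 inhibitors lay on opposite sides of 0 on every array.

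The mock cells of the 5 lines differed from each other in these genes. Levels of the Cy3 mock channel are given as log2 of the signal over the 75th percentile of its array, and only 1 gene at a time is compared between lines. SK-MES-1 had the lowest level for 32 of 45 members, with a median of -0.76 relative to the mean of the 5 lines of each gene, where all genes were at -0.14. MDA-MB-231 was highest for 20 members, 17 of them of mitosis, with a median of 0.37, and SW1990 for 16, 13 of them of replication, with 0.27. PC3 was highest for 6, PANC1 for 2 and SK-MES-1 for 1. The range between lines was over 1 for 39 of the 45 members, whereas the 2 mock arrays of 1 line differed by a median of 0.056 and at most 0.64, for CDC6. No test was made, since each line had only 1 or 2 mock arrays, and whether the 2 of a line held 1 mock sample is not given in the sources used here.

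The range was widest for MCM7, with levels of 7.23 in PC3, 5.25 in SK-MES-1, 7.61 in SW1990, 7.22 in MDA-MB-231 and 6.99 in PANC1. PC3 and MDA-MB-231 did not differ there beyond the spread between mock arrays, and SK-MES-1 lay far below the others. KIF20A had levels of 3.06 in PC3, 1.46 in SK-MES-1, 2.96 in SW1990, 3.82 in MDA-MB-231 and 2.72 in PANC1, and CDK1 had 5.57 in PC3, 3.22 in SK-MES-1, 5.30 in SW1990, 4.84 in MDA-MB-231 and 4.67 in PANC1. CDC20 had levels of 3.07 in PC3, 2.20 in SK-MES-1, 3.84 in SW1990, 4.50 in MDA-MB-231 and 4.22 in PANC1, and AURKB had 1.06 in PC3, 0.49 in SK-MES-1, 2.11 in SW1990, 2.59 in MDA-MB-231 and 2.01 in PANC1. SK-MES-1 was lowest for all 5 of these genes, and the highest line was SW1990 for MCM7, PC3 for CDK1 and MDA-MB-231 for the other 3. For AURKB, SW1990 and PANC1 differed by less than the 0.19 that separated its mock arrays of 1 line.

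**Figure D5:**
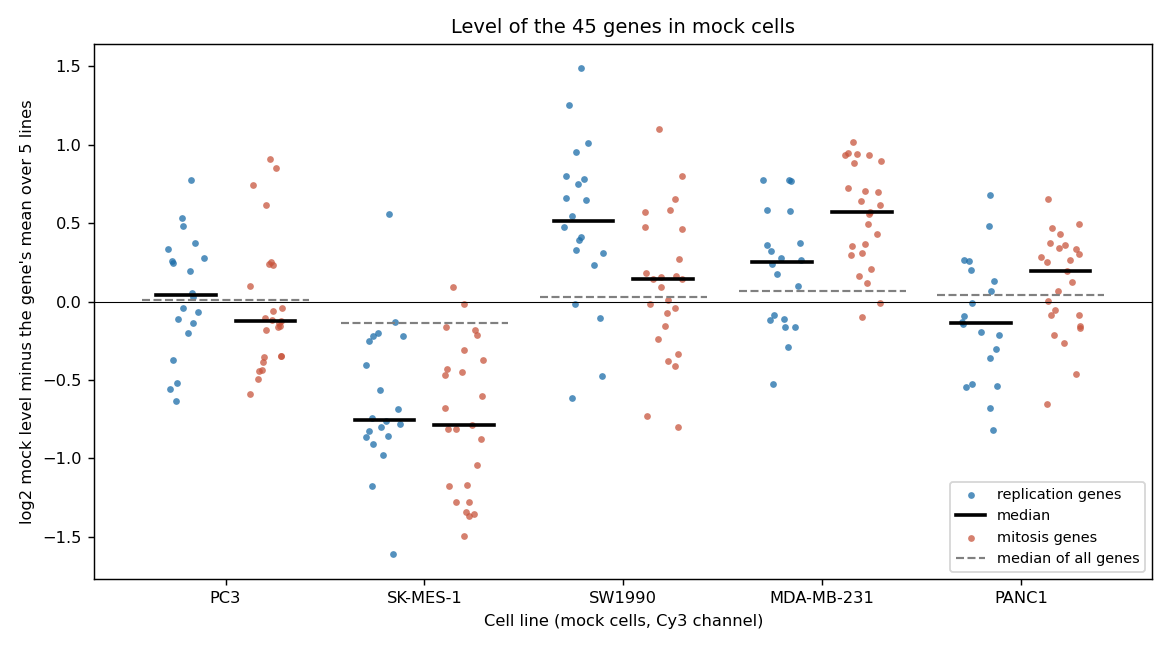
Level of each of the 45 members in mock cells of the 5 lines, as log2 of the Cy3 signal over the 75th percentile of its array, less the mean of that gene over the lines (points by list, black bars the list's median, dashed lines the median of all genes). SK-MES-1 was lowest for 32 of the 45 members, with a median of -0.76, and MDA-MB-231 was highest for 20.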

How the data were processed

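Log10 ratios (Cy5 over Cy3), processed signal intensities and background flags of each spot were used as the authors deposited them, from Agilent Feature Extraction 11.5.1.1, which per the file headers subtracted background and removed the trend of the ratio with brightness by linear and LOWESS fits. From these, control spots and outlier flags were left out, the log10 ratio was turned to log2, and each gene was read by its brightest probe among those marked above background in either channel on all arrays of the fit. The deposited value table held the same log10 ratios, so it was no separate check, and 0 columns of no sample were found. Tests were limma (3.58.1, R 4.3.3) on the log2 ratio against 0 with Benjamini-Hochberg adjustment over all genes. They used a joint fit of the 4 arrays of si-PIR and miR-204-5p (residual df 2) and a fit over 5 line means (residual df 4). Alternatives were normexp (offset 50) with loess or with median centring, other filters, the mean over probes, and samples left out. The members, other lists and tests were chosen with earlier results of these data known. Ratios on every array were given for PCNA, MCM2, MCM7, E2F1, RRM2, CDK1, CCNB1, TOP2A, MKI67 and PLK1, and for members at the extremes of an array, of probe disagreement or of mock range, up to 2 genes of each other list, and PIR. Further members were named with their values known. Group names follow the labels, whose siRNA numbers differ from those of the study's methods. The number of arrays limits the precision.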

Additional observations from a re-analysis of the deposited data

Results flagged for a closer look

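Of 48 values checked over the 5 lines for a sample far from the rest, 1 stood apart. By its brightest probe, the only one checked, the mean log2 ratio of PLK1 in PC3 was 0.27, against -0.29 to -0.13 in the other 4 lines. Its other probe read 0.15 with si-PIR-2 and 0.24 with si-PIR-3. It read -0.23 and 0.0036 in SK-MES-1, -0.35 in SW1990, -0.48 in MDA-MB-231, and -0.40 and -0.94 in PANC1. Such a check marks about 1 in 20 groups by chance.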

How the results depend on the processing

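The results turned mainly on the scaling of the ratios. With normexp background correction and median centring, in place of a correction that follows brightness, the members called at an adjusted p under 0.05 were 0 lower and 37 higher for si-PIR, 1 lower and 14 higher for miR-204-5p, and 0 lower and 32 higher over the 5 lines, beside 31 lower and 10059 higher, 67 lower and 8504 higher, and 13378 higher of all genes. The members' median was then 0.77 with si-PIR-2, 0.75 with si-PIR-3, 0.52 with miR-144-5p, 0.58 with miR-144-3p, 0.35 with miR-204-5p in SW1990, 0.22 in MDA-MB-231, -0.11 with miR-130-5p and 0.67 with miR-130-3p. Less the median of all genes, a setting chosen after seeing the data, it was 0.30, 0.40, 0.18, 0.27, -0.077, -0.089, -0.28 and 0.26 in the same order. The median of the fitted means moved to 0.29 for miR-204-5p and 0.42 over the 5 lines. With si-PIR the means of MCM4, KIF11 and CDC45 moved to 0.038, 0.40 and 0.44, and with miR-204-5p that of AURKB to 0.0031. Over the 5 lines the means were then 0.24 for KIF11, 0.27 for MCM6, 0.47 for MCM7, 0.072 for CENPE, 0.061 for MCM4, 0.15 for TOP2A, 0.50 for PCNA, 0.56 for MCM2, 0.40 for E2F1, 0.25 for RRM2, 0.36 for CDK1, 0.43 for CCNB1, 0.59 for MKI67 and 0.43 for PLK1. Which scaling is nearer to the RNA levels was not tested, since no dye was swapped.

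With normexp and loess the direction of the members' medians was kept on all 8 arrays, and over the 5 lines 2 members, KIF11 and MCM7, were lower at an adjusted p under 0.05, beside 58 lower and 161 higher of all genes. With the 8 arrays as separate samples the same 2 were lower, beside 222 lower and 472 higher of all genes, and with the cell line as a random block 118 and 252 of all genes were called and 0 members. Without a filter on dim probes 9 and 15 of all genes were called over the 5 lines. With both channels required to be well above background 51 and 101 were called, and 6 genes were lower with miR-204-5p. Leaving out 1 line at a time, 3 to 7 genes were called lower and 0 to 2 higher, and 0 members. The mean of MKI67 over the 5 lines, -0.034, changed sign to 0.062 without SW1990, 0.017 without MDA-MB-231, 0.0070 without PANC1, 0.039 with 8 separate arrays and 0.027 with the random block, and was -0.13 without SK-MES-1. The mock level of the members in SK-MES-1 was -0.52 with quantile normalization and -0.65 with normexp, that of MDA-MB-231 was 0.23 with quantile normalization and that of SW1990 was 0.18 with normexp. The deposited value table was identical to the scanner ratio on all 8 arrays, so its equal values for all 62 results compared were no separate check. Averaging all probes of each gene changed no call. A block for slide or scan was not run, because all 8 arrays lay on 1 slide in 1 scan. Each ratio already sets transfected cells against mock cells of the same line on 1 array. No further pairing of samples between groups was analysed. All members were well above background, but signal limited CDC6, a dim one, whose ratio of -0.77 with si-PIR-2 was -0.18 with normexp and loess.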
